A study of Mus musculus with 6 samples.

Results

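Genes for the chaperones and secretory quality control of the endoplasmic reticulum (ER) were followed in mouse fibroblasts kept on substrates of different stiffness. The set is a fixed list of 42 genes covering protein folding, the sensors of unfolded protein, ER-associated degradation and the first step of export. It was matched by Ensembl identifier to mouse symbols, and all 42 genes were found among the 57010 identifiers of the count table and passed the filter on low counts that left 16093 genes. Dermal fibroblasts from mouse ear, 500000 cells per sample, had been kept for 3 days on a polyacrylamide hydrogel of 1 kPa, on a polyacrylamide hydrogel of 20 kPa, or on glass as the control, and polyadenylated RNA was sequenced from 2 libraries per substrate, 6 in all. Polyacrylamide gels are inert and their stiffness is set by crosslinking. Glass is the stiffest of the 3 substrates by far. It also differs from the gels in material, so stiffness and material cannot be told apart when a gel is compared with glass. The series addresses how matrix stiffness acts on the epigenetic state of fibroblasts that are to be reprogrammed to neurons, and the labels of these libraries name a substrate and no reprogramming factor. The sources used here do not give strain, age, sex or genotype. The labels do not say whether the libraries of a substrate came from separate cultures or animals, so the p-values rest on the spread between these particular samples, and that spread may be technical.

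The ER is where secreted and membrane proteins enter the secretory pathway, fold, form disulfide bonds and receive their first sugars, and proteins that do not fold are sent back to the cytosol for degradation. When unfolded protein accumulates, sensors in the ER membrane start the unfolded protein response, which raises the transcription of chaperones and degradation factors through the factors ATF6 and XBP1. Fibroblasts make large amounts of collagen, a bulky protein that needs chaperones of its own and a specialised exit from the ER.

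Library totals ran from 17669006 to 21350111 counts, so that 3 counts correspond to 0.139 to 0.174 CPM, which is a count divided by the scaled size of its library. Both libraries of a substrate differed beyond counting error, most of all on glass (chi-square over degrees of freedom 9.80 on 1 kPa, 3.46 on 20 kPa and 37.8 on glass). In glass replicate 2, 5.10% of all counts fell on ENSMUSG00000119584.1, an identifier without a symbol, against 0.95% to 2.90% elsewhere. The chi-square includes this identifier, and its part in the value was not separated. Over all tested genes, the median absolute log2 difference between the libraries of a substrate was 0.10 on 1 kPa, 0.11 on 20 kPa and 0.14 on glass. The fibroblast label was checked against 8 defining markers: all 8 were expressed in every library, and their summed level was 27290 and 26040 CPM on 1 kPa, 29340 and 28160 CPM on 20 kPa, and 16660 and 15480 CPM on glass. Among them, the matrix proteoglycan genes Lum and Dcn were 20.6 and 22.5 times their glass level on 1 kPa and 19.4 and 18.5 times on 20 kPa.

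On both gels the set leaned towards lower expression than on glass, by small amounts. On 1 kPa 19 of the 42 genes fell and 6 rose (edgeR quasi-likelihood test, Benjamini-Hochberg adjusted p under 0.05, as for every call below), where 22% of all tested genes fell and 23% rose. On 20 kPa 23 fell and 6 rose, where 19.6% of all tested genes fell and 22.3% rose. The median log2 fold change of the set was -0.10 on 1 kPa and -0.18 on 20 kPa, against 0.00 and 0.02 for all tested genes. The 1 kPa median depended on the glass libraries, at -0.038 without glass replicate 1 and -0.164 without glass replicate 2, and the 19 genes that fell on 1 kPa became 13 without 1 kPa replicate 2. Both comparisons use the same glass libraries. In RNA from a whole culture, fewer cells of a type and less RNA per cell cannot be told apart.

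The changes were small in size. Derl3 alone, 2.38% of the set, was called with at least a 2-fold change against glass, compared with 12.6% of all tested genes on 1 kPa and 11.5% on 20 kPa. The summed level of the 42 genes was 13400 and 13150 CPM on 1 kPa, 12550 and 12380 CPM on 20 kPa, and 14740 and 14400 CPM on glass. The glass libraries were the highest and the 20 kPa libraries the lowest, with no overlap between substrates. Of the 42 genes, 17 were lower on both gels, 4 were higher on both, and 8 were called in none of the 3 pairwise comparisons. The same counts were not made over all tested genes, and both gels were compared with the same glass libraries. The test over the 3 substrates called 32 of the 42, where 51.2% of all tested genes were called. No comparison with all tested genes was matched for expression level.

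**Figure D1:**
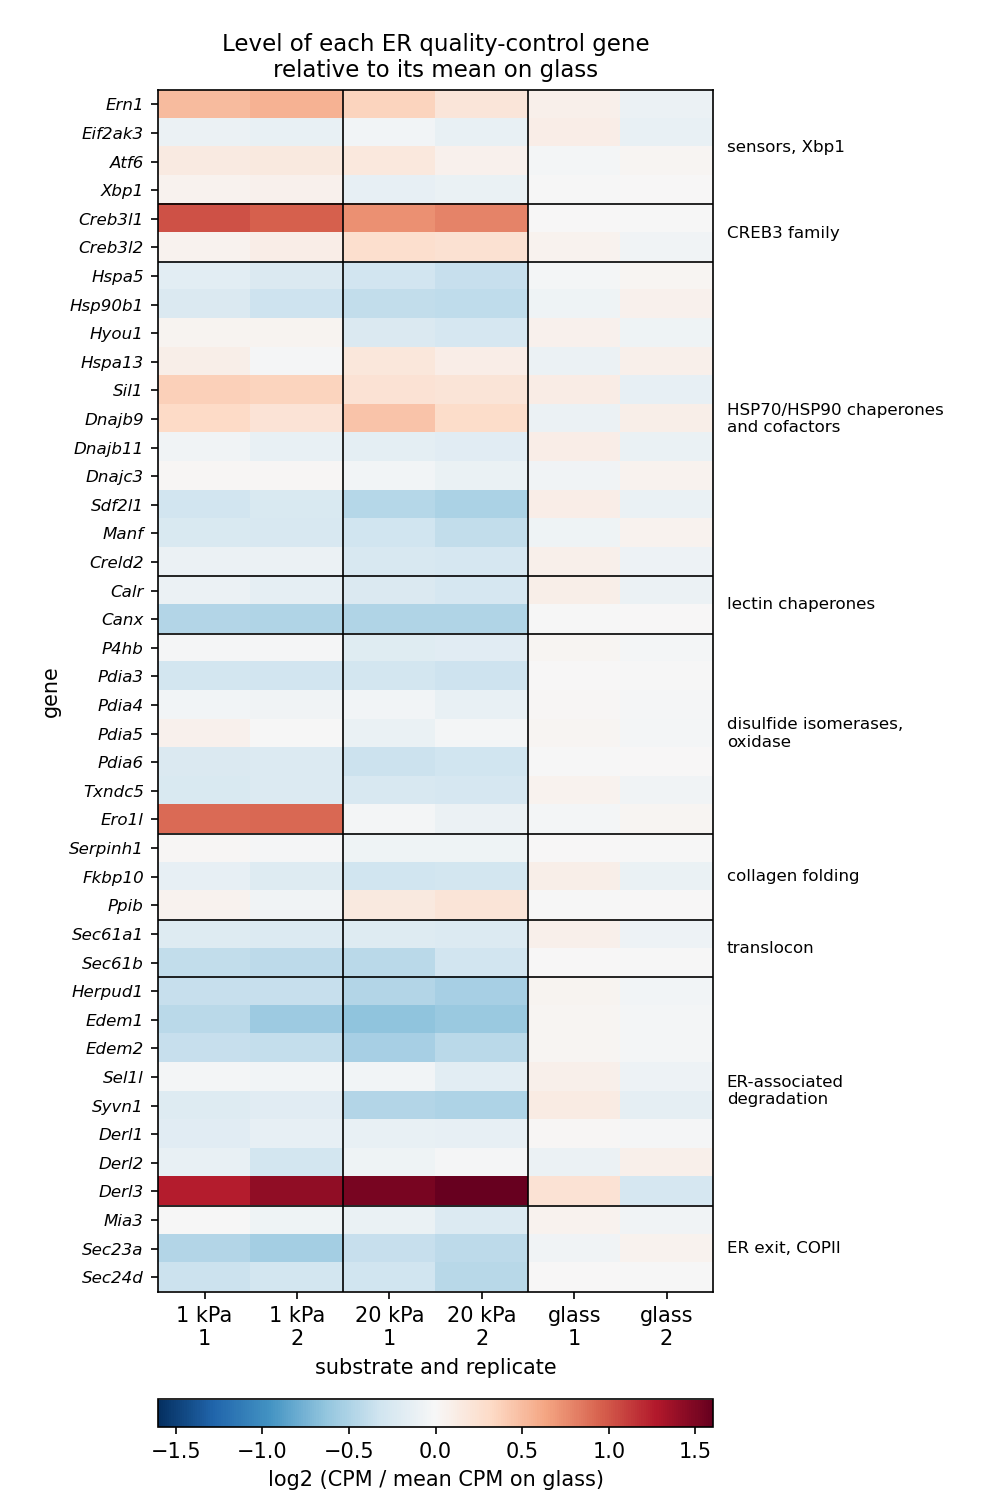
Level of each of the 42 genes in each library, as log2 of CPM over its mean CPM on glass, with the 1 kPa, 20 kPa and glass libraries from left to right and genes ordered by role. Blue cells are below the glass mean and red cells above it: blue prevails among chaperones, degradation and export genes on both gels, and Ero1l is red in the 1 kPa libraries, with values near its glass mean in the 20 kPa libraries.

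Many genes of this pathway carry a known DNA element in the promoter, the ER stress element, which ATF6 binds together with NF-Y and which reads CCAAT, 9 bases of any kind, then CCACG. The promoters of the members were searched for it on both strands. Its part in the expression differences was not tested. Promoters were taken from RefSeq (build GRCm38.p6, 250 bases before to 50 after a gene's start) for 33 of the 42 genes. Atf6, Creb3l1, Hyou1, Hspa13, Sil1, Manf, Fkbp10, Sec61a1 and Derl1 had no entry. The members were listed as genes of this pathway. Their share of this and the further elements therefore describes the list and not the response to the substrate. The element was present in 9 of the 33 members, 27.3%, and in 37 of all 27025 genes in the promoter table, 0.137%. The windows below show these elements, 1 per gene, with 10 bases on each side, written 5′ to 3′ in the direction of the element, and the fixed letters of the element in capitals.
Hspa5: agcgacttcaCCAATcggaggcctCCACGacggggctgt
Hsp90b1: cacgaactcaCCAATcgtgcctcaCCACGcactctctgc
Calr: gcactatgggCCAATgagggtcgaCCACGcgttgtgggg
Canx: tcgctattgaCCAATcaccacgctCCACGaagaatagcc
Pdia6: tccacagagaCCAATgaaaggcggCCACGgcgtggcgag
Creld2: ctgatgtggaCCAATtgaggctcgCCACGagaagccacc
Dnajc3: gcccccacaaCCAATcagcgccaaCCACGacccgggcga
Syvn1: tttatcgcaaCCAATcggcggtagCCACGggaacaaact
Derl3: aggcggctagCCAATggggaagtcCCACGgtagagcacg

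The windows lie at chr2:34772015-34772053 for Hspa5 (plus strand), chr10:86705523-86705561 for Hsp90b1 (plus), chr8:84847065-84847103 for Calr (plus), chr11:50325790-50325828 for Canx (minus) and chr12:17266481-17266519 for Pdia6 (plus). They lie at chr15:88819510-88819548 for Creld2 (minus), chr14:118937817-118937855 for Dnajc3 (plus), chr19:6046522-6046560 for Syvn1 (plus) and chr10:75893232-75893270 for Derl3 (minus). Hsp90b1 held a second copy. In its setting in the Hspa5 promoter, the best known target of the response, the element begins 65 bases before the start. The 250 bases before the RefSeq start of Hspa5 (chr2:34771840-34772089, plus strand) hold CCAAT, read on either strand, 4 times and CCACG 1 time, with the fixed letters of the element in capitals.
Hspa5 promoter: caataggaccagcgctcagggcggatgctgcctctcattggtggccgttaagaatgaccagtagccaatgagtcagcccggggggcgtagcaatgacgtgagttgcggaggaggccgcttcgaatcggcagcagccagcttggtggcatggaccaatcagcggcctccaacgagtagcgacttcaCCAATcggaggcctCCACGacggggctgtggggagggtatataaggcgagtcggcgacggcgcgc

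The genes with this element did not all move the same way. Of the 9, on 1 kPa 5 fell and 1 rose (median log2 fold change -0.20), and on 20 kPa 7 fell and 1 rose (median -0.33). Of the 24 members with a promoter entry and no such element, 10 fell and 3 rose on 1 kPa (median -0.07), and 12 fell and 4 rose on 20 kPa (median -0.14). Of all tested genes, 22% fell and 23% rose on 1 kPa, and 19.6% fell and 22.3% rose on 20 kPa. Derl3, with the same element as Hspa5, rose on both gels, and Dnajc3 was called on neither. A second form, ATTGG, 1 base of any kind, then CCACG, was present in Herpud1 and Dnajb11, which is 6.10% of the 33 members against 0.0444% of all genes. The element bound by XBP1, TGACG directly followed by TGG, was present in Sec24d, Sec23a and Txndc5, 9.10% of the members against 0.714% of all genes. No member held more than 1 of the 3 kinds, so no matches overlapped. The windows below show the second form and the XBP1 element in Herpud1, Sec24d and Txndc5, whose matches lie before the start.
Herpud1: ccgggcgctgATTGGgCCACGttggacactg
Sec24d: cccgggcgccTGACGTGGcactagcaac
Txndc5: gcctcgccgcTGACGTGGcgctagccgc

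These windows lie at chr8:94386367-94386397 (plus strand), chr3:123267460-123267487 (plus) and chr13:38528035-38528062 (minus). All 3 genes fell on both gels. A match to the letters is a description of the sequence and not a measured binding site.

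Of the sensors, Ern1, which encodes the kinase and ribonuclease IRE1α that splices Xbp1 mRNA, rose on both gels. Its level was 77.8 and 80.5 CPM on 1 kPa, 70.1 and 62.7 CPM on 20 kPa, and 58.2 and 51.5 CPM on glass, in an order with no overlap between substrates. The log2 fold change against glass was 0.53 (SE 0.07, edgeR adjusted p = 6.21e-07) on 1 kPa and 0.27 (SE 0.07, edgeR adjusted p = 0.00338) on 20 kPa. Without 20 kPa replicate 1 the 20 kPa call was lost (log2 fold change 0.20, edgeR adjusted p = 0.115). The other sensors, Eif2ak3, the kinase PERK that slows translation, and Atf6, a membrane-tethered factor released by cleavage in the Golgi, were called on neither gel, with log2 fold changes of -0.10 and 0.15 on 1 kPa and -0.09 and 0.12 on 20 kPa. Without glass replicate 2 both were called on 1 kPa (-0.21, edgeR adjusted p = 0.0361, and 0.19, edgeR adjusted p = 0.0433). Xbp1, the transcription factor made from the spliced mRNA, had 169 and 170.1 CPM on 1 kPa, 148 and 150.3 CPM on 20 kPa, and 162 and 163 CPM on glass. It was called on neither gel against glass. Counts per gene do not separate spliced from unspliced Xbp1 mRNA.

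Creb3l1 and Creb3l2 encode OASIS and BBF2H7, ER-membrane factors that are cleaved like ATF6 and that in the mouse act on bone collagen and on export from the ER in cartilage. Creb3l1 (ENSMUSG00000027230.10, chr2:91982328-92024502, minus strand) had 58.2 and 55.9 CPM on 1 kPa, 47.7 and 49.8 CPM on 20 kPa, and 28.8 and 28.6 CPM on glass. Every gel library was above every glass library. The level was 1.99 times that on glass on 1 kPa (log2 fold change 0.99, SE 0.08, edgeR adjusted p = 5.22e-12) and 1.70 times on 20 kPa (0.76, SE 0.08, edgeR adjusted p = 1.85e-09), and both calls held in all 15 alternatives. Creb3l2 had 179 and 186 CPM on 1 kPa, 208 and 203 CPM on 20 kPa, and 179 and 165 CPM on glass. It rose on 20 kPa (0.25, SE 0.06, edgeR adjusted p = 0.000723) and was not called on 1 kPa, where replicate 1 lay next to glass replicate 1.

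**Figure D2:**
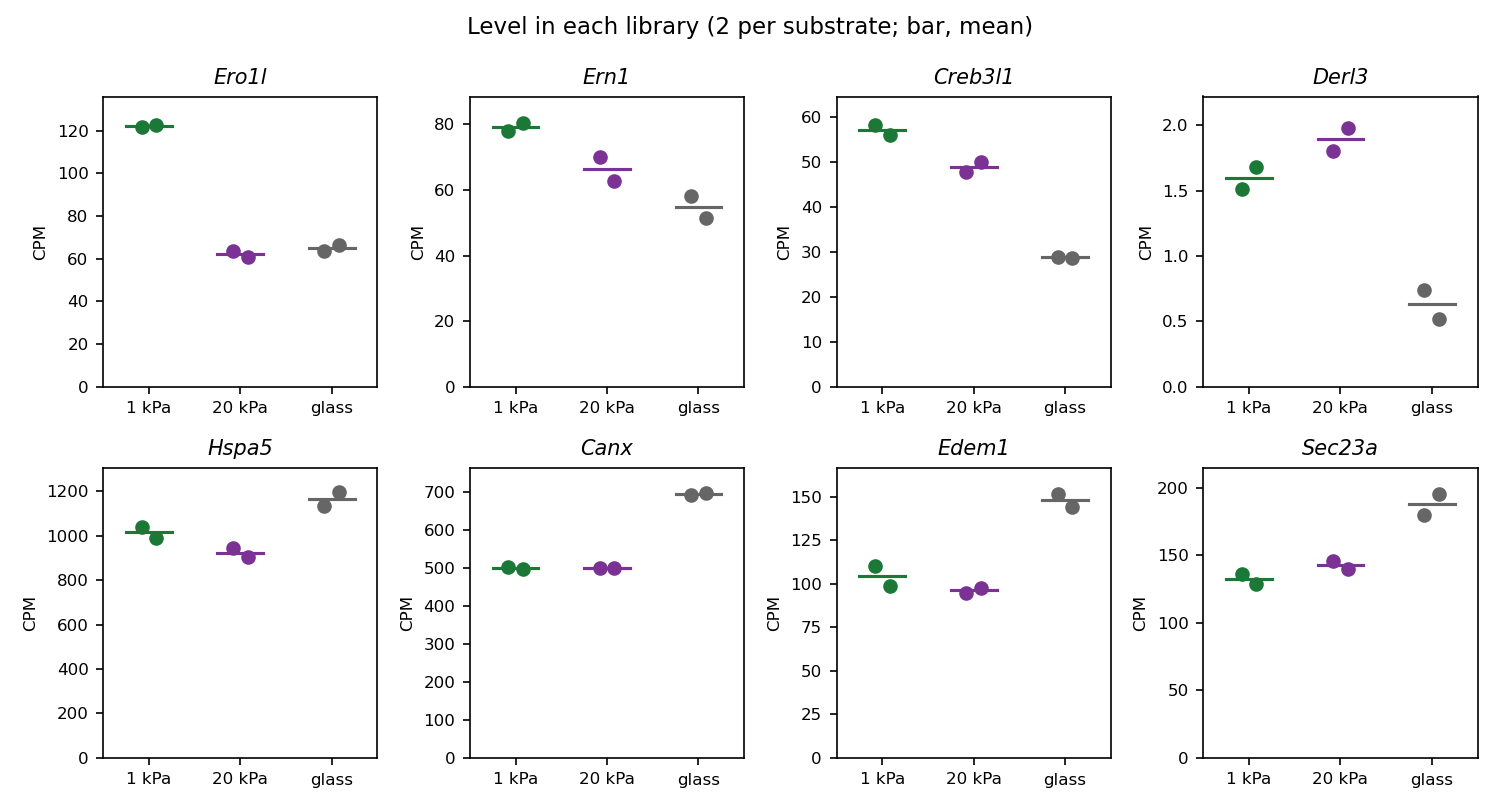
Level in CPM of 8 genes in each library, 2 points per substrate with a bar at their mean, for 1 kPa, 20 kPa and glass from left to right. The 4 genes of the top row were higher on at least 1 gel, Ero1l on 1 kPa alone, and the 4 of the bottom row were lower on both gels than on glass.

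The HSP70 and HSP90 chaperones and their cofactors did not all move the same way. Of 11 genes, 4 fell and 2 rose on 1 kPa, where 22% of all tested genes fell and 23% rose. On 20 kPa 7 fell and 1 rose, where 19.6% of all tested genes fell and 22.3% rose. Hspa5, which encodes BiP, the main HSP70 of the ER, had 1040 and 988 CPM on 1 kPa, 943 and 902 CPM on 20 kPa, and 1135 and 1194 CPM on glass. Its libraries did not overlap between substrates. It fell by 12.9% on 1 kPa (log2 fold change -0.20, SE 0.06, edgeR adjusted p = 0.00611) and by 20.7% on 20 kPa (-0.34, SE 0.06, edgeR adjusted p = 2.24e-05). Hsp90b1, the ER HSP90 known as GRP94, had 890 and 832 CPM on 1 kPa, 795 and 788 CPM on 20 kPa, and 995 and 1093 CPM on glass, and fell by 17.5% on 1 kPa and by 24.2% on 20 kPa. The Hspa5 call on 1 kPa was lost without 1 kPa replicate 2 (-0.16, edgeR adjusted p = 0.155).

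The smaller cofactors went in both directions. Sdf2l1, a partner of a J-domain cofactor of BiP, and Manf, a BiP-binding protein that is also secreted, fell on both gels, with log2 fold changes of -0.28 and -0.25 on 1 kPa and -0.49 and -0.35 on 20 kPa. Hyou1, which exchanges the nucleotide of BiP, Creld2, an ER protein with EGF repeats, and Dnajb11, a J-domain partner of BiP, fell on 20 kPa (-0.25, -0.27 and -0.17) and were not called on 1 kPa (0.04, -0.09 and -0.09). Between the gels Hyou1 was called, and Creld2 and Dnajb11 were not (edgeR adjusted p = 0.0882 and 0.428). Dnajb9, another J-domain partner, which brings BiP to IRE1, rose on both gels. It had 49.8 and 46.6 CPM on 1 kPa, 55.1 and 49.0 CPM on 20 kPa, and 37.4 and 42.8 CPM on glass (log2 fold change 0.27, edgeR adjusted p = 0.00808 on 1 kPa, and 0.38, edgeR adjusted p = 0.00033 on 20 kPa). Sil1, a second nucleotide exchange factor of BiP, rose on 1 kPa (0.36, edgeR adjusted p = 0.00145), and at 0.21 its difference on 20 kPa missed the threshold (edgeR adjusted p = 0.0612). It passed on 20 kPa with total counts as library sizes (edgeR adjusted p = 0.0378), with a stricter filter (edgeR adjusted p = 0.0482) and without glass replicate 1 (0.35). Between the gels Sil1 was not called (edgeR adjusted p = 0.255).

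Several of these calls rested on 1 library. On 1 kPa, the Sdf2l1 call was lost without glass replicate 1 (edgeR adjusted p = 0.157) or without 1 kPa replicate 1 (edgeR adjusted p = 0.0911), and the Dnajb9 call without the same libraries (edgeR adjusted p = 0.128 and 0.116). On 20 kPa, the Dnajb11 call was lost without any 1 library other than glass replicate 2. The smallest difference, -0.06, came when glass replicate 1 was left out. The Dnajb11 call was also lost with DESeq2 (DESeq2 adjusted p = 0.0639) and with total counts as library sizes (edgeR adjusted p = 0.121). The Creld2 call on 20 kPa was lost without glass replicate 1 (-0.18).

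Both lectin chaperones, which hold glycoproteins while they fold, were lower on 20 kPa. Canx, the membrane-bound calnexin (ENSMUSG00000020368.16, chr11:50293961-50325673, minus strand), had 501 and 498 CPM on 1 kPa, 499 and 498 CPM on 20 kPa, and 691 and 696 CPM on glass. The 4 gel libraries were nearly equal, and all were below both glass libraries. Canx fell by 28.0% on 1 kPa (log2 fold change -0.47, SE 0.06, edgeR adjusted p = 2.42e-08) and by 28.1% on 20 kPa (-0.48, SE 0.06, edgeR adjusted p = 2.51e-08). Calr, its soluble relative calreticulin, had 1373 and 1331 CPM on 1 kPa, 1246 and 1222 CPM on 20 kPa, and 1564 and 1373 CPM on glass. Calr fell on 20 kPa (-0.25, edgeR adjusted p = 0.00154), and on 1 kPa its libraries met the lower glass library (-0.12, edgeR adjusted p = 0.121, and -0.21, edgeR adjusted p = 0.000687 without glass replicate 2). The annotation holds a Calr pseudogene, Calr-ps, which can share its reads.

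Of the 7 disulfide genes, the isomerases were lower or not called. Pdia3, the partner of calnexin and calreticulin also known as ERp57, had 913 and 900 CPM on 1 kPa, 913 and 886 CPM on 20 kPa, and 1120 and 1114 CPM on glass, and fell by 18.9% on 1 kPa and by 19.5% on 20 kPa. Pdia6 and Txndc5, further thioredoxin-fold isomerases, fell on 1 kPa by 0.23 each (log2 scale) and on 20 kPa by 0.33 (Pdia6) and 0.26 (Txndc5). P4hb, the classical protein disulfide isomerase and a subunit of the collagen prolyl 4-hydroxylase, fell on 20 kPa (-0.19, edgeR adjusted p = 0.0103), a call lost without either 20 kPa library (edgeR adjusted p = 0.088 and 0.0676). The P4hb call was also lost with total counts as library sizes (edgeR adjusted p = 0.0886). Pdia4 and Pdia5 were called on neither gel, with log2 fold changes between -0.08 and 0.03.

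Ero1l was the exception among them. It encodes ERO1α, the oxidase that restores the disulfide of the isomerases with oxygen (ENSMUSG00000021831.10, chr14:45283087-45318771, minus strand). It had 122 and 123 CPM on 1 kPa, 63.4 and 60.7 CPM on 20 kPa, and 63.4 and 66.3 CPM on glass. The 1 kPa libraries stood apart from the other 4, and the 20 kPa and glass libraries overlapped. The level on 1 kPa was 1.89 times that on glass (log2 fold change 0.92, SE 0.06, edgeR adjusted p = 3.64e-13), and on 20 kPa it was not called (-0.06, 95% interval -0.20 to 0.07, edgeR adjusted p = 0.48). In all 15 alternatives the 1 kPa call held, with log2 fold changes of 0.88 to 0.95.

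**Figure D3:**
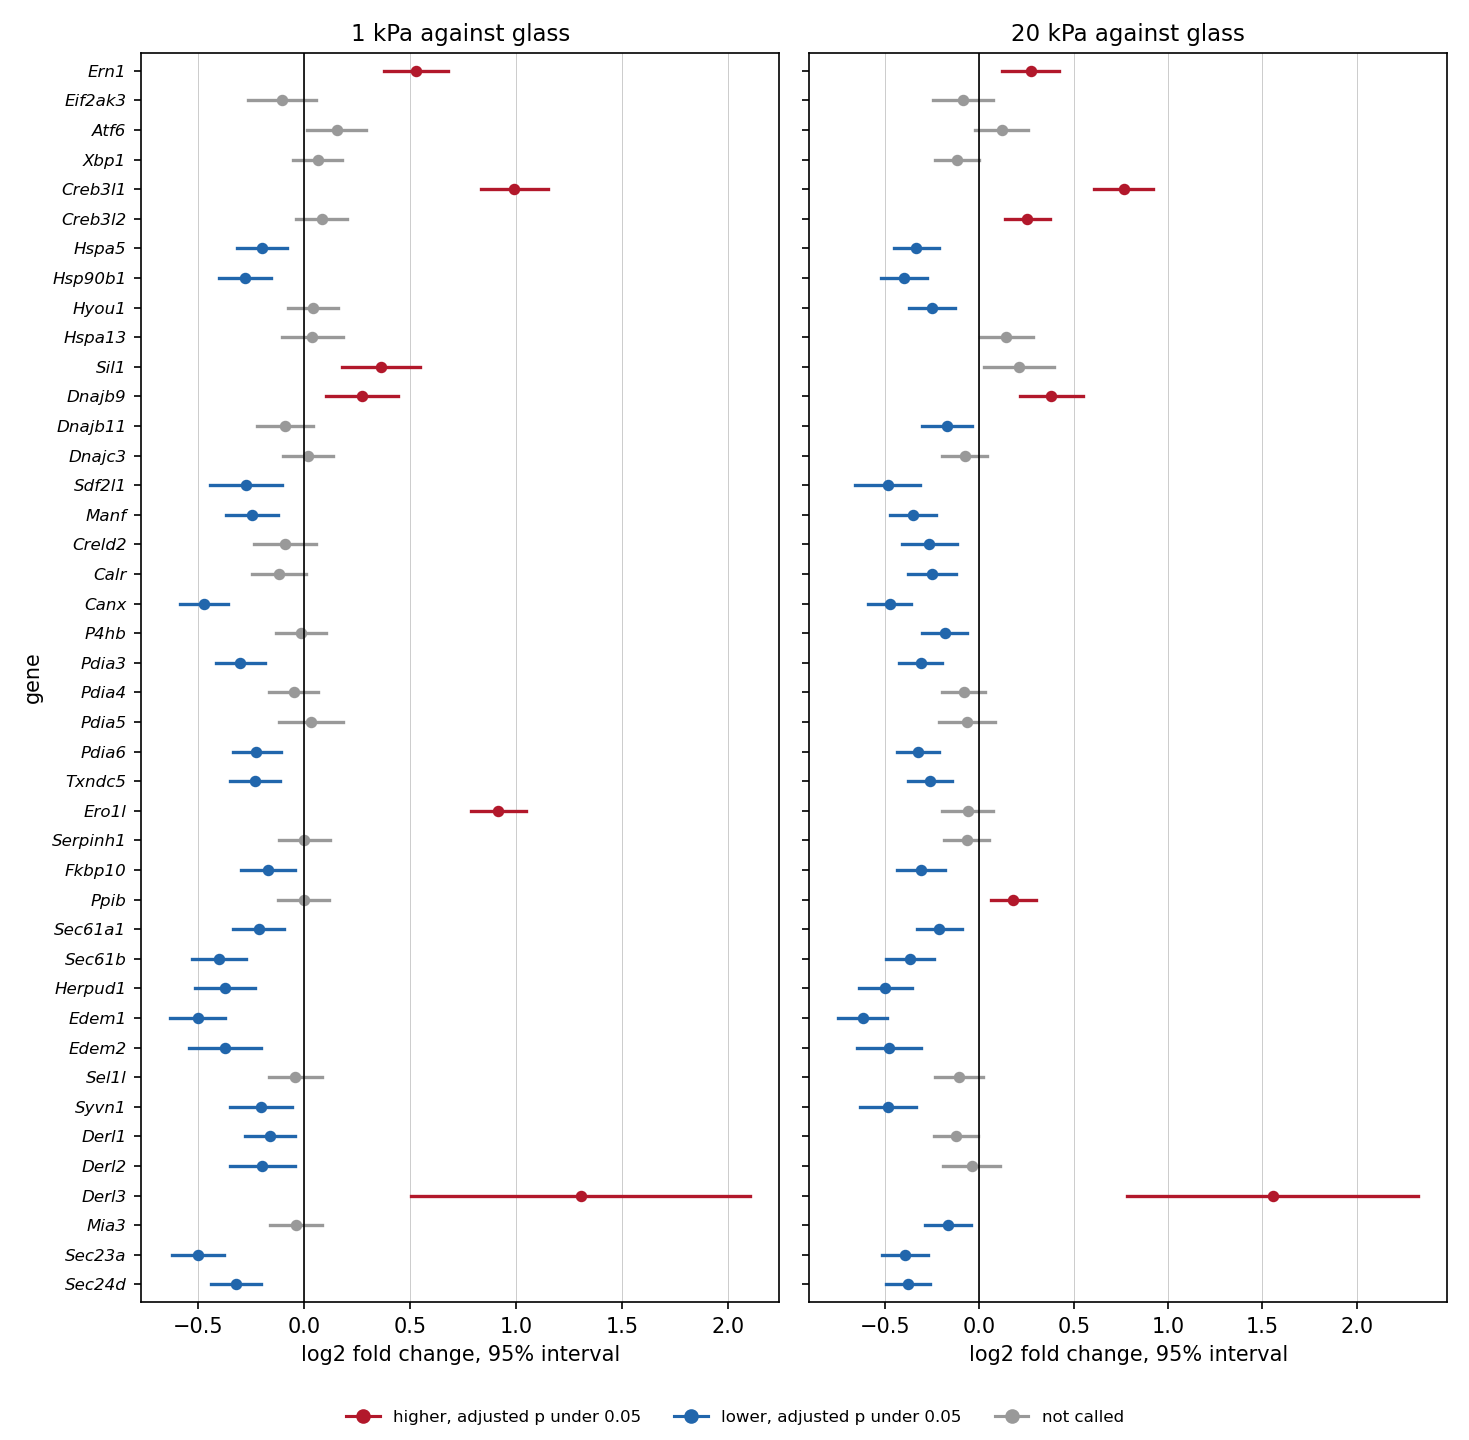
Log2 fold change of each of the 42 genes on 1 kPa (left) and on 20 kPa (right) against glass, with its 95% interval from the edgeR fit, coloured by call at an adjusted p of 0.05. Most called genes lie left of 0 on both gels, none of them below -0.62, and Derl3, with the fewest counts, has the widest interval.

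The collagen chaperones did not move together. Serpinh1, which encodes the collagen-specific chaperone HSP47, had the highest level per kilobase of exon in the set, 764 CPM per kilobase over the 6 libraries, ahead of P4hb with 509 and Calr with 469. Its level was 1914 and 1875 CPM on 1 kPa, 1803 and 1812 CPM on 20 kPa, and 1897 and 1890 CPM on glass. It was called on neither gel (0.00, 95% interval -0.12 to 0.12 on 1 kPa, and -0.07, 95% interval -0.19 to 0.05 on 20 kPa). Fkbp10, a prolyl isomerase of procollagen, fell on both gels (-0.17, edgeR adjusted p = 0.0257 on 1 kPa, and -0.31, edgeR adjusted p = 0.000131 on 20 kPa), and its 1 kPa call was lost without glass replicate 1 (-0.07), without 1 kPa replicate 1 (-0.21) or without 1 kPa replicate 2 (-0.13). The Fkbp10 call on 1 kPa was also lost with only the 4 libraries compared in the fit (edgeR adjusted p = 0.0547). Ppib, the isomerase cyclophilin B, had 167 and 154 CPM on 1 kPa, 179 and 185 CPM on 20 kPa, and 161 and 161 CPM on glass. Ppib rose on 20 kPa (0.18, edgeR adjusted p = 0.0135), a call lost without 20 kPa replicate 2 (0.16, edgeR adjusted p = 0.126), and 25% of its exon length overlaps another gene.

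The secreted cargo of this machinery leaned the other way. Of 9 matrix genes, collagens, fibronectin and Sparc, 7 rose on 1 kPa, where 23% of all tested genes rose, and 7 rose and 1 fell on 20 kPa, where 22.3% of all tested genes rose. The gene that fell was Col5a2, a chain of collagen V (-0.20, edgeR adjusted p = 0.0118), and its call was lost without 20 kPa replicate 2 or with total counts. The summed level of the 9 genes was 52620 and 51670 CPM on 1 kPa, 56720 and 53960 CPM on 20 kPa, and 42450 and 39290 CPM on glass. Col3a1, the fibrillar collagen III of skin, had 6539 and 6269 CPM on 1 kPa, 8615 and 8047 CPM on 20 kPa, and 3115 and 2871 CPM on glass. Its level was 2.14 times that on glass on 1 kPa and 2.78 times on 20 kPa (edgeR adjusted p = 3.85e-14 and 4.94e-17). Col6a2, a chain of the microfibrillar collagen VI, rose by 0.40 (log2) on 1 kPa and by 0.37 (log2) on 20 kPa. No gel library had a lower summed cargo level, or a higher summed level of the 42 ER genes, than any glass library.

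Both translocon subunits, which form the channel through which new proteins enter the ER, fell on both gels. Sec61b had 84.2 and 82.8 CPM on 1 kPa, 81.9 and 89.1 CPM on 20 kPa, and 110.5 and 110.1 CPM on glass, a fall of 0.40 on 1 kPa and of 0.37 on 20 kPa on the log2 scale. Sec61a1, the pore-forming subunit, fell by 0.22 on 1 kPa and by 0.21 on 20 kPa. The Sec61a1 calls were lost on 1 kPa without 1 kPa replicate 2 (edgeR adjusted p = 0.059) and on 20 kPa without 20 kPa replicate 2 (edgeR adjusted p = 0.0559).

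ER-associated degradation held the largest fall and the largest rise of the set against glass. Of its 8 genes, 6 fell and 1 rose on 1 kPa, where 22% of all tested genes fell and 23% rose. On 20 kPa 4 fell and 1 rose, where 19.6% of all tested genes fell and 22.3% rose. The 6 that fell on 1 kPa became 3 without 1 kPa replicate 2. Edem1, which trims mannose from misfolded glycoproteins (ENSMUSG00000030104.10, chr6:108828641-108859356, plus strand), had 110.2 and 98.6 CPM on 1 kPa, 94.9 and 97.9 CPM on 20 kPa, and 152 and 145 CPM on glass. All gel libraries were below both glass libraries. Edem1 fell by 29.5% on 1 kPa (log2 fold change -0.50, SE 0.06, edgeR adjusted p = 9.49e-08) and by 34.9% on 20 kPa (-0.62, SE 0.06, edgeR adjusted p = 2.02e-09). Its relative Edem2 fell by 0.38 (log2) on 1 kPa and by 0.48 (log2) on 20 kPa, and Herpud1, a membrane protein that gathers the degradation complex, by 0.37 on 1 kPa and by 0.50 on 20 kPa.

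Syvn1 encodes HRD1, the ubiquitin ligase at the centre of that complex. It had 88.5 and 90.2 CPM on 1 kPa, 73.8 and 73.0 CPM on 20 kPa, and 112 and 92.7 CPM on glass. It fell by 28.6% on 20 kPa (log2 fold change -0.49, edgeR adjusted p = 1.91e-06) and by 13.1% on 1 kPa (-0.20, edgeR adjusted p = 0.0216), where its libraries lay close under glass replicate 2. The 1 kPa call was lost with DESeq2 (DESeq2 adjusted p = 0.0678), without glass replicate 1 (-0.06) or without either 1 kPa library. Its partner Sel1l, which holds the ligase complex together, was called on neither gel (-0.04 and -0.11), although without glass replicate 2 it was called on 20 kPa (-0.19, edgeR adjusted p = 0.00805).

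The derlins, which carry substrates out through the membrane, were split. Derl1 and Derl2 fell on 1 kPa (-0.16, edgeR adjusted p = 0.0222, and -0.20, edgeR adjusted p = 0.0329) and were not called on 20 kPa. The Derl2 call was lost with DESeq2 (DESeq2 adjusted p = 0.0858) and with only the 4 libraries compared in the fit (edgeR adjusted p = 0.0567). The Derl1 call was lost without either 1 kPa library (edgeR adjusted p = 0.217 and 0.0926), and the Derl2 call without glass replicate 2 (edgeR adjusted p = 0.295), 1 kPa replicate 2 (edgeR adjusted p = 0.398) or 20 kPa replicate 1 (edgeR adjusted p = 0.0508). Derl3 (ENSMUSG00000009092.6, chr10:75893413-75895941, plus strand) was the least expressed gene of the set, with 31 and 30 counts on 1 kPa, 37 and 41 counts on 20 kPa, and 16 and 9 counts on glass. Every gel library held more counts than either glass library. Its level was 2.47 times that on glass on 1 kPa (log2 fold change 1.31, 95% interval 0.50 to 2.11, edgeR adjusted p = 0.00723) and 2.94 times on 20 kPa (1.56, 95% interval 0.78 to 2.33, edgeR adjusted p = 0.00127). Without glass replicate 2 the 1 kPa call was lost (1.10, edgeR adjusted p = 0.0559).

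The export genes were lower. Sec23a and Sec24d encode subunits of the COPII coat that buds vesicles from the ER. Sec23a had 136 and 129 CPM on 1 kPa, 146 and 139.9 CPM on 20 kPa, and 180.1 and 196 CPM on glass, with every gel library below both glass libraries, and fell by 29.4% on 1 kPa and by 24.0% on 20 kPa (edgeR adjusted p = 4.26e-08 and 2.71e-06). Sec24d had 190.5 and 198 CPM on 1 kPa, 194 and 179 CPM on 20 kPa, and 245 and 241 CPM on glass. It fell by 20.0% on 1 kPa and by 23.1% on 20 kPa. Mia3, which encodes TANGO1, the receptor that loads collagen at exit sites, fell on 20 kPa (-0.17, edgeR adjusted p = 0.026) and was called neither on 1 kPa nor between the gels (edgeR adjusted p = 0.143 between the gels). The Mia3 call was lost with total counts as library sizes (edgeR adjusted p = 0.117). It was also lost without glass replicate 1 (-0.11), either 1 kPa library or 20 kPa replicate 2 (-0.11).

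Between the gels fewer genes differed. On 20 kPa relative to 1 kPa, 7 of the 42 genes were lower and 2 higher, where 9.92% of all tested genes were lower and 8.94% higher, and the median log2 fold change of the set was -0.10 against 0.00 for all tested genes. Ero1l was at 0.51 times its 1 kPa level on 20 kPa (log2 fold change -0.98, SE 0.06, edgeR adjusted p = 4.13e-13), and Hyou1, with 208 and 204 CPM on 20 kPa and 252 and 253 CPM on 1 kPa, fell by 18.4% (edgeR adjusted p = 0.000421). These 2 calls held in all 15 alternatives, with Hyou1 between -0.31 and -0.25. The other lower calls were Syvn1 (-0.28), Ern1 (-0.25), Creb3l1 (-0.23), Xbp1 (-0.18) and P4hb (-0.17), and the higher ones were Ppib (0.18) and Creb3l2 (0.17).

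Each of these other 7 calls was lost in at least 1 of the alternatives. With DESeq2 those of Creb3l1, Creb3l2 and Ppib were lost (DESeq2 adjusted p = 0.0709, 0.0938 and 0.0688). With total counts those of Creb3l1, Xbp1 and P4hb were lost (edgeR adjusted p = 0.111, 0.156 and 0.246). The calls of Creb3l1, Creb3l2, Xbp1 and P4hb were lost without any 1 of the 4 gel libraries, with edgeR adjusted p of 0.0808 to 0.3. Those of Syvn1 and Ppib were lost without any 1 of them other than 1 kPa replicate 1 (0.0606 to 0.425), and that of Ern1 without any other than 20 kPa replicate 1 (0.0527 to 0.248). Without either glass library, 13 genes of the set were lower, among them Hspa5, Hsp90b1, Calr, Sdf2l1, Creld2 and Fkbp10, all of which were lower on 20 kPa in both libraries.

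**Figure D4:**
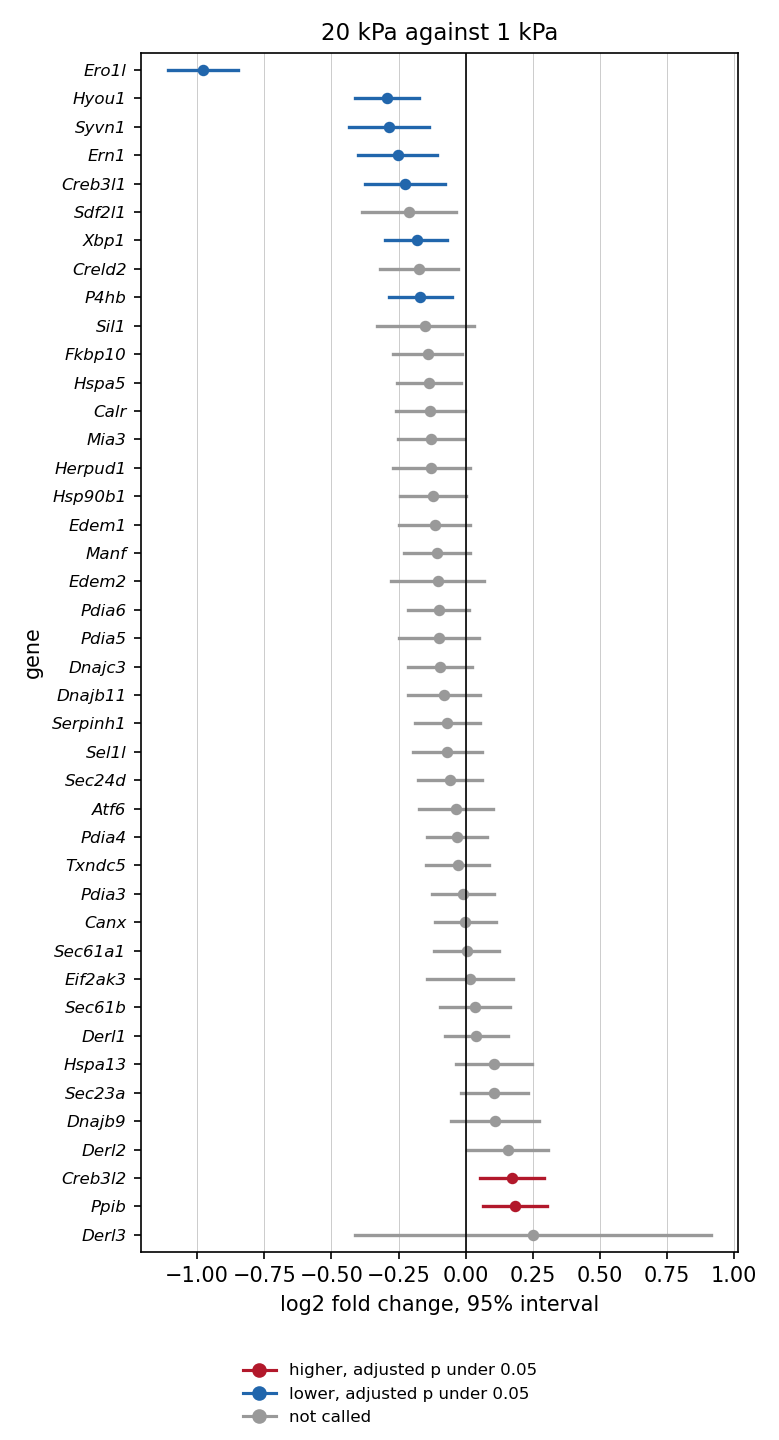
Log2 fold change of each of the 42 genes on 20 kPa against 1 kPa, sorted, with its 95% interval from the edgeR fit and coloured by call. Ero1l at -0.98 stands apart, and 33 of the 42 genes were not called.

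Other genes of the same organelle were counted for comparison, 94 tested genes of 96 listed in 7 groups. On 1 kPa 28 fell and 15 rose, where 22% of all tested genes fell and 23% rose. On 20 kPa 39 fell and 16 rose, where 19.6% of all tested genes fell and 22.3% rose. The medians were -0.09 and -0.10, against 0.00 and 0.02 for all tested genes. The 20 genes of ER exit, cargo receptors and KDEL receptors, which return escaped ER proteins, held no called rise: 9 fell on 1 kPa and 15 fell on 20 kPa. The 15 became 9 without 20 kPa replicate 2 or with total counts as library sizes, 10 without 20 kPa replicate 1, and the 9 became 6 without 1 kPa replicate 2, while without glass replicate 1 a single gene of the group rose on each gel. Tfg, which organises COPII at exit sites, had 79.7 and 78.8 CPM on 1 kPa, 79.2 and 74.9 CPM on 20 kPa, and 117 and 109 CPM on glass, a fall of 29.9% on 1 kPa and of 31.9% on 20 kPa. Sec24a, another COPII coat subunit, fell by 24.2% on 1 kPa and by 27.3% on 20 kPa. Of 13 genes of translocation and signal cleavage, 5 fell and 1 rose on 1 kPa, and 4 fell and 3 rose on 20 kPa. In some of the alternatives fewer than 3 rose on 20 kPa. Sec63, the J-domain subunit that recruits BiP to the channel, fell by 23.9% on 1 kPa and fell by 19.8% on 20 kPa, and Ssr3, a subunit of the translocon-associated complex, fell by 0.39 (log2) on 1 kPa and by 0.26 (log2) on 20 kPa.

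The remaining groups were mixed, and their counts are to be read beside the shares of all tested genes. Those shares were 22% lower and 23% higher on 1 kPa, and 19.6% lower and 22.3% higher on 20 kPa. Of 17 other folding enzymes, 4 fell and 5 rose on 1 kPa, and 5 fell and 5 rose on 20 kPa. The 5 that rose on 1 kPa became 3 without glass replicate 1 or either 1 kPa library, 3 with total counts, and 2 with DESeq2. Dnajc10, a disulfide reductase with a J domain that acts before degradation, had 179.9 and 173 CPM on 1 kPa, 181 and 175 CPM on 20 kPa, and 269 and 279 CPM on glass, a fall of 0.63 on 1 kPa and of 0.62 on 20 kPa on the log2 scale, while the cyclophilin Ppic rose by 0.55 on 1 kPa and by 0.80 on 20 kPa. In the glycan group of 12, 2 fell and 2 rose on 1 kPa, and 4 fell and 2 rose on 20 kPa. Mogs, the glucosidase that makes the first cut of the new glycan, rose by 0.54 on 1 kPa and by 0.52 on 20 kPa, and Stt3a, a catalytic subunit of the enzyme that attaches it, fell by 0.25 on 1 kPa and by 0.22 on 20 kPa. Of 17 other degradation genes, 5 fell and 2 rose on 1 kPa, and 6 fell and 2 rose on 20 kPa, with falls of 0.35 on 1 kPa and of 0.28 on 20 kPa for Vcp, the ATPase that extracts substrates, and of 0.38 on 1 kPa and of 0.23 on 20 kPa for Selenos, a membrane selenoprotein that binds it. The 20 kPa calls were lost without 20 kPa replicate 2 for Stt3a (edgeR adjusted p = 0.0618) and without 20 kPa replicate 1 for Selenos (edgeR adjusted p = 0.0958), and without 20 kPa replicate 2 none of the 12 glycan genes was called lower on 20 kPa. The 5 other degradation genes that fell on 1 kPa became 3 without either 1 kPa library or with DESeq2.

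Of 8 genes of the PERK, ATF4 and CHOP arm, 2 fell and 2 rose on 1 kPa, and 4 fell and 1 rose on 20 kPa. On 1 kPa that is 25% in each direction, near the 22% and 23% of all tested genes. On 20 kPa 19.6% of all tested genes fell and 22.3% rose. Both 20 kPa counts of the arm changed in some of the alternatives, with fewer falls than in the main fit. Ppp1r15a, which encodes GADD34, the phosphatase subunit that ends the PERK signal, had 48.2 and 48.5 CPM on 1 kPa, 41.3 and 36.9 CPM on 20 kPa, and 37.0 and 32.7 CPM on glass. It rose on 1 kPa (0.47, edgeR adjusted p = 2.62e-05) and was not called on 20 kPa against glass. Chac1, a target of that arm that degrades glutathione, fell by 29.5% on 1 kPa and by 35.7% on 20 kPa. Of 7 tested genes among the other sensors and their proteases, 1 fell and 3 rose on each gel, with Atf6b, the relative of Atf6, higher by 0.33 on 1 kPa and by 0.19 on 20 kPa and Creb3, a relative of Creb3l1, lower by 19.6% on 1 kPa and by 16.1% on 20 kPa. The Atf6b call on 20 kPa was lost without glass replicate 2 (edgeR adjusted p = 0.197) or without 20 kPa replicate 2 (edgeR adjusted p = 0.235), and with DESeq2 (adjusted p = 0.0821), and without glass replicate 2, or with DESeq2, none of the 7 genes was called higher on 20 kPa. Ppp1r15a was called on 20 kPa without glass replicate 1 (edgeR adjusted p = 0.0317).

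**Figure D5:**
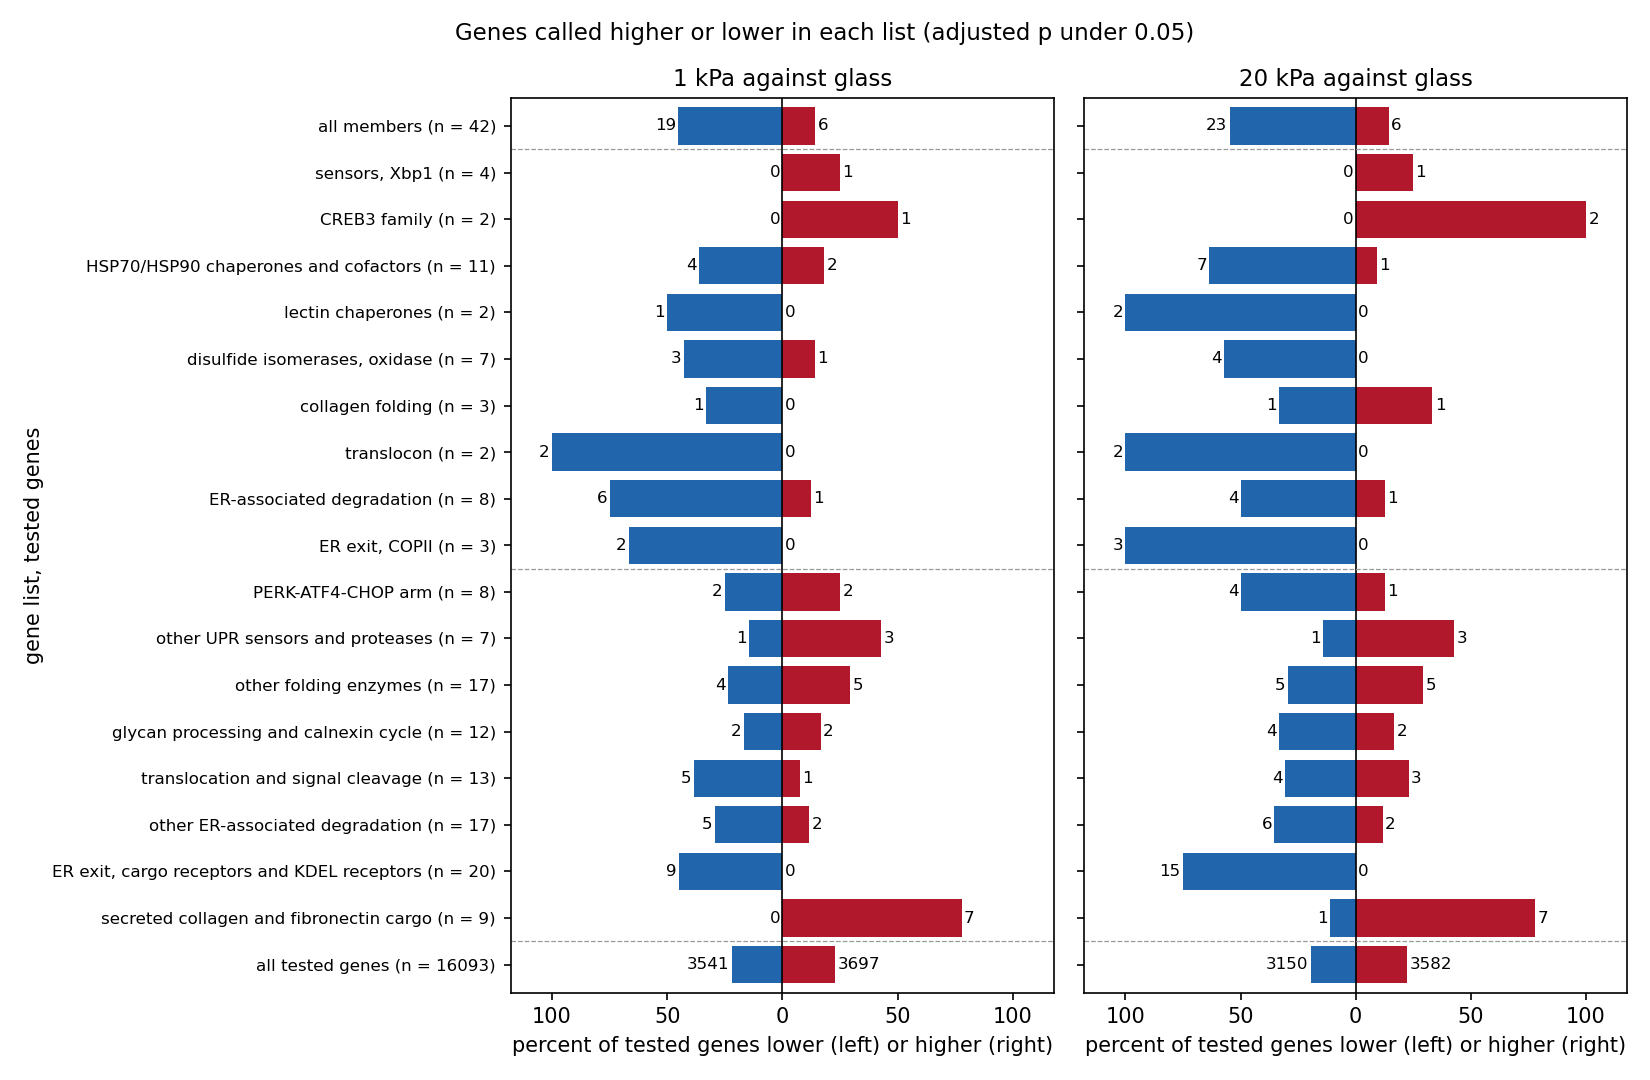
Percent of the tested genes of each list that were lower (left of 0) or higher (right) on 1 kPa and on 20 kPa against glass, with the number of genes beside each bar. The roles within the 42 genes stand at the top, the other ER groups and the secreted cargo in the middle, and all 16093 tested genes at the bottom, where 3541 fell and 3697 rose on 1 kPa and 3150 fell and 3582 rose on 20 kPa.

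The 8 genes called in none of the 3 comparisons were Eif2ak3, Atf6, Hspa13, an HSP70-like ATPase of the ER, Dnajc3, a J-domain partner of BiP, Pdia4, Pdia5, Serpinh1 and Sel1l. Their 95% intervals on either gel against glass lay between -0.26 and 0.29 on the log2 scale. Hspa13 had 78.5 and 72.7 CPM on 1 kPa, 83.5 and 79.1 CPM on 20 kPa, and 69.4 and 78.2 CPM on glass. The 20 kPa and glass libraries of Hspa13 were close without overlap, and without glass replicate 2 it was called on 20 kPa (0.23, edgeR adjusted p = 0.01). The median absolute log2 difference between both libraries of a substrate, over the 42 genes, was 0.03 on 1 kPa, 0.05 on 20 kPa and 0.12 on glass, so that the glass libraries were the least alike.

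Markers of other cell types moved with the substrate. Of 12 chondrocyte markers, 11 were tested, of which 7 rose and 2 fell on 1 kPa and 10 rose and 1 fell on 20 kPa, and 10 were higher on 20 kPa than on 1 kPa. Their summed level was 902 and 874 CPM on 1 kPa, 1567 and 1506 CPM on 20 kPa, and 620 and 585 CPM on glass, and Matn1 had 0 counts in the gel libraries. The 8 macrophage and leukocyte markers summed to 56.3 and 56.1 CPM on 1 kPa, 28.5 and 24.6 CPM on 20 kPa, and 16.2 and 17.6 CPM on glass, of which Cd14 gave most on 1 kPa and Ptprc stayed at or below 0.29 CPM in every library. Of the 5 tested, 2 rose on 1 kPa, and 2 rose and 1 fell on 20 kPa. The markers of plasma and B cells, which are rich in ER chaperones, summed to at most 1.55 CPM, with Igkc at 0 counts in all 6 libraries. The 6 endothelial markers summed to 28.6 and 26.5 CPM on 1 kPa, 25.2 and 24.3 CPM on 20 kPa, and 14.1 and 14.4 CPM on glass, with 3 higher on 1 kPa and 4 higher on 20 kPa. The 7 skeletal muscle markers, of which 4 were tested, summed to 29.4 and 31.3 CPM on 1 kPa, 19.4 and 17.1 CPM on 20 kPa, and 13.02 and 12.6 CPM on glass, with 3 higher on 1 kPa and 2 higher on 20 kPa. The 7 Schwann cell and melanocyte markers summed to 16.7 and 14.9 CPM on 1 kPa, 22.8 and 23.3 CPM on 20 kPa, and 10.2 and 8.57 CPM on glass, and 2 of 5 tested rose on 1 kPa and 4 on 20 kPa. On the gels the 8 keratinocyte markers summed to 26.2 and 28.1 CPM (1 kPa) and 26.7 and 27.1 CPM (20 kPa). On glass they summed to 18.4 and 23.3 CPM. Of the 5 keratinocyte markers tested, 3 fell and 1 rose on each gel. The basal keratins Krt5 and Krt14 fell by 4.29 and 2.24 on the log2 scale on 1 kPa and fell by 2.67 and 3.39 on 20 kPa, with at most 3.53 CPM in any library, and Trp63 rose. The part of these cell types in the ER gene results was not tested.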

How the data were processed

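The deposited table holds whole-number counts of reads per gene, which the authors left without normalisation. The submitters' processing notes name the mm10 build and the tools Trim Galore, cutadapt, featureCounts and STAR (2.7.10b). The settings, the annotation and the use of strand are not stated there, so overlapping genes and near-identical copies are uncertain. Of the identifiers, 91.4% matched GENCODE M21 (GRCm38), 99.9% of them in another version, from which symbols, positions and exon lengths were taken. All 6 libraries entered 1 quasi-likelihood fit (edgeR 4.0.16, R 4.3.3; filterByExpr by group, TMM factors, substrate as the only term, 3 residual degrees of freedom, common biological coefficient of variation 5%). Every adjusted p is Benjamini-Hochberg over all 16093 tested genes, with a threshold of 0.05. CPM uses TMM-scaled library sizes. SE is the absolute log2 fold change over the root of its F statistic, and 95% intervals use the t distribution. The floor of 3 counts covers counting error only.

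The members, roles and gene lists were chosen with earlier results of these data known, so the counts over a list describe it and are no independent support. All 42 members could be named, the 2 genes of each other ER list with the smallest p over the 3 substrates, and members with a promoter element; Col5a2 and the markers named beside the results were chosen after their values were seen. Alternatives were DESeq2 1.42.0, limma 3.58.1 with voom, 3 other scalings, 2 other filters, the replicate number as a block, a fit of the 4 libraries compared, and leaving out each library. Titles number the replicates, but same-numbered libraries did not deviate together (correlations of deviations -0.03, -0.03 and -0.02), so the numbers were not taken as pairs.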

Additional observations from a re-analysis of the deposited data

How the results depend on the processing

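No called log2 fold change of the 42 genes, or of the 16 other ER and cargo genes named by rule, changed sign in any of the 15 alternatives. Of the 25 calls among the 42 genes on 1 kPa, 16 held in all 15 alternatives, of the 29 on 20 kPa, 22 held, and of the 9 between the gels, 2 held, Ero1l and Hyou1. Against glass, the counts called among the 42 genes stayed within 1.5 times their main values, with 13 to 21 lower on 1 kPa and 19 to 24 lower on 20 kPa, while over all genes the 7238 called on 1 kPa became 5569 without 1 kPa replicate 2. The median of the 42 genes ran from -0.164 (without glass replicate 2) to -0.038 (without glass replicate 1) on 1 kPa and from -0.246 (without glass replicate 2) to -0.133 (without glass replicate 1) on 20 kPa when 1 library was left out. On 20 kPa against 1 kPa, the 2 genes higher became 1 with DESeq2 size factors, 1 with the replicate block and 0 with the DESeq2 test, and ranged from 0 to 2 with a library left out. The 7 lower became 4 with total counts and 14 with only the 4 gel libraries in the fit, and ranged from 2 to 13 with a library left out. Over all genes, the 3035 called between the gels became 2022 with DESeq2 and ranged from 1680 to 3824 with a library left out. Higher genes were 47.4% of those calls, and 60.9% with total counts, which shifted the median of all genes by 0.045. With the replicate block, Creb3l2 between the gels missed the threshold (edgeR adjusted p = 0.0503). The cause of these differences was not tested. Where 1 library of a substrate was left out, the other was assumed to vary like those of the other substrates. The smallest difference called against glass was -0.16 (Derl1 on 1 kPa), and Derl3, with 9 to 41 counts per library, is limited by depth.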
